A study of Mus musculus with 12 samples.

Results

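Bone morphogenetic protein (BMP) signalling was described over 10 genes in mouse lung tumours and adjacent lung: the receptors Bmpr2, Bmpr1a and Acvrl1, the ligands Bmp4 and Bmp5, the secreted antagonists Chrdl1 and Grem1, and the target genes Id1, Id3 and Smad6. The genes were chosen by symbol, with results of these libraries known, from the 78298 genes of the count table, and all 10 were among the 22190 genes with enough reads to be tested. The 12 libraries form 4 groups of 3: macroscopic LLC tumours or normal adjacent lung, each under VEH or under house dust mite (HDM), which the series describes as given chronically. The labels give no strain, sex, age, dose or duration, leave VEH and LLC unexplained and do not say how the tumours arose. Pieces were cut out under a binocular microscope, and total RNA of small frozen aliquots was sequenced as bulk RNA.

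BMP ligands are secreted dimers that bring together a type I receptor, such as the products of Bmpr1a and Acvrl1, and a type II receptor, such as that of Bmpr2. The type I receptor then phosphorylates the Smad1, Smad5 and Smad9 proteins, which bind Smad4, enter the nucleus and switch on targets that include the Id genes and the feedback inhibitor Smad6. In adult lung the pathway is best known from endothelium: loss of BMPR2 function underlies heritable pulmonary arterial hypertension, and loss of ACVRL1 function underlies hereditary haemorrhagic telangiectasia.

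The libraries held 20608682 to 32765364 counted fragments or reads. Summed over 12 alveolar markers, the adjacent lung libraries reached 19060 to 46360 CPM (read counts scaled to library size, with TMM factors that correct for differing library composition), and the tumours 109 to 9500. The 15 endothelial markers (among them Pecam1, Cdh5 and Kdr) summed to 2759 to 5753 CPM in adjacent lung and 166 to 914 CPM in tumours, 15 of 15 were called lower in tumour under each treatment, and none was at 0 in every library of a group. The 8 cell cycle genes summed to 32.2 to 176 CPM in adjacent lung and 555 to 1133 CPM in tumours. The 10 fibroblast markers moved apart: their sum was 1433 to 3442 CPM in adjacent lung and 5609 to 14030 CPM in tumours, but only Col3a1, Dcn and Lum were called higher, while 4 were called lower under VEH and 5 under HDM (Col1a2, Tcf21, Mfap4 and Npnt, with Pdgfrb under HDM), and the list's median log2 difference was -0.38 and -1.26. Beside these marker counts, 20.6% of all tested genes were called lower and 18.2% higher under VEH, and 28.9% and 23% under HDM. In bulk tissue, fewer cells of a type and less RNA per cell cannot be told apart, and this holds for every difference below. Library names share 6 prefixes between 1 adjacent and 1 tumour library each, and 2 of these prefixes join libraries whose treatment labels differ.

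In group means, 9 of the 10 genes were lower in tumour than in adjacent lung under both treatments and Grem1 was higher. Under VEH, 9 of 10 were called lower and 0 higher by edgeR's quasi-likelihood test at an adjusted p below 0.05, where 20.6% of all tested genes were called lower and 18.2% higher. Under HDM, 8 were called lower and 1 higher, where 28.9% and 23% were. The genes were chosen with such differences known and which comparison served is not recorded, so nothing is read from these counts, and the values that follow are a description. The VEH count dropped to 5 without tumour VEH replicate 1, to 4 without tumour VEH replicate 3, and to 4 without the 4 libraries of the conflicting prefixes, whereas the HDM count was 8 or 9 without any 1 library.

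**Figure D1:**
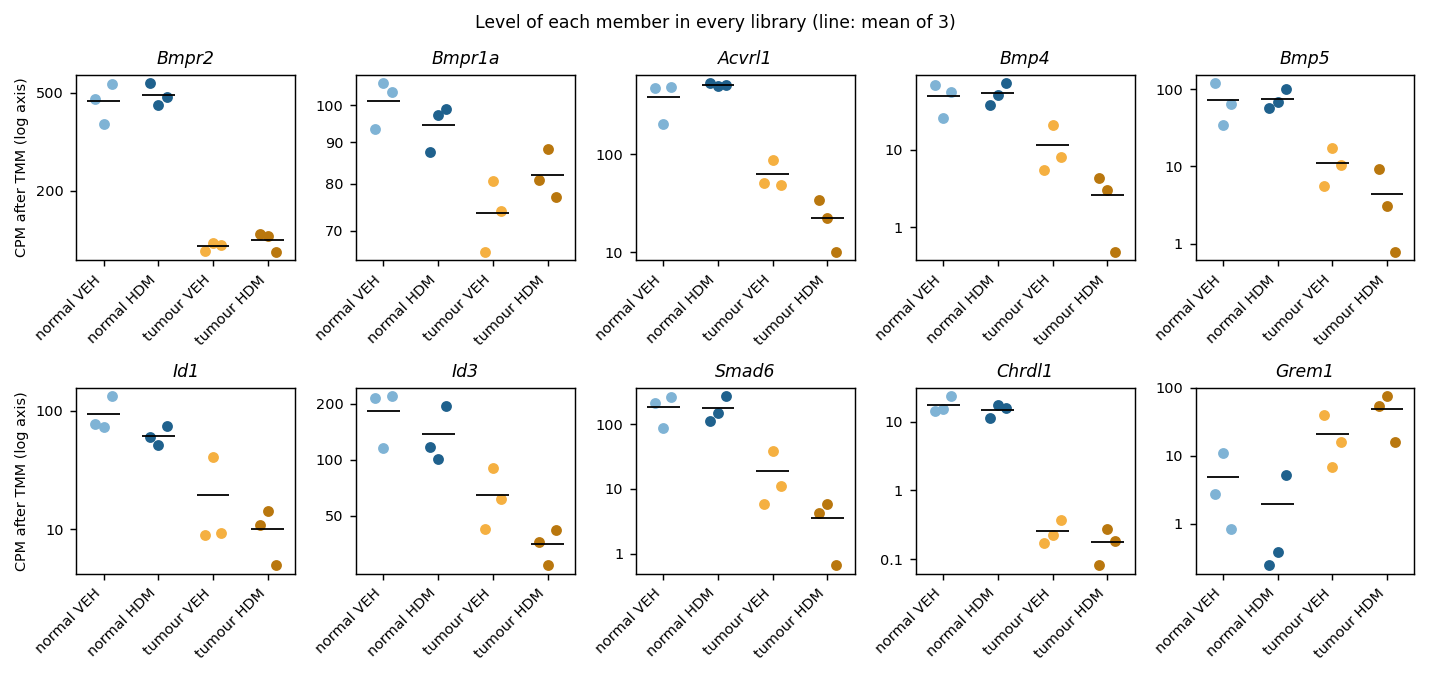
CPM of each of the 10 genes (log axis, range differing between panels) in the 12 libraries by group, 3 points per group, with a line at the mean. Every tumour lies below every adjacent lung library for Bmpr2, Acvrl1, Bmp4, Bmp5, Id1, Id3, Smad6 and Chrdl1, whereas the Grem1 tumour libraries lie between 6.84 and 75.2 CPM against 0.246 to 11.1 CPM. Within a treatment, tumours lay below adjacent lung without overlap for 28.5% of all tested genes under VEH and 33.5% under HDM.

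Bmpr2 encodes the type II receptor and lies on chromosome 1 at 59802544 to 59918173 (ENSMUSG00000067336, plus strand, GRCm39). Its level was 471, 373 and 542 CPM in normal VEH replicates 1 to 3, 548, 446 and 479 CPM in normal HDM, 113, 122 and 119.9 CPM in tumour VEH, and 134, 131 and 113 CPM in tumour HDM. The tumours form a tight band that no adjacent lung library approaches: the highest tumour level was 1.19 times the lowest. The tumour level was lower by 3.90-fold in means under VEH and 3.91-fold under HDM, with log2 differences of -1.96 ± 0.16 and -1.97 ± 0.16 (SE). The tumour range of Bmpr2 was the narrowest of the 10 genes, whereas the summed endothelial markers in the same 6 libraries ranged 5.51-fold. Over the 12 libraries, Ldaf1 had the closest centred log2 profile to Bmpr2 (mean absolute difference 0.11, against a median of 1.07 over 11367 candidate genes), followed by Tacc1 and Klhl5.

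Bmpr1a encodes a widely expressed type I receptor and lies on chromosome 14 at 34132687 to 34225379 (ENSMUSG00000021796, minus strand). It stood at 93.4, 106.5 and 103.9 CPM in normal VEH, 87.5, 97.3 and 98.8 CPM in normal HDM, 65.9, 80.6 and 74.1 CPM in tumour VEH, and 80.9, 88.3 and 76.9 CPM in tumour HDM. The groups did not overlap under VEH, where the log2 difference was -0.46 ± 0.12, but they did under HDM, where it was -0.20 ± 0.12 and was not called. Bmpr1a moved least of the 10 genes, and its size depended on the scaling: with library size in place of TMM, which shifts the median of all genes from -0.11 to 0.03 under VEH and from -0.08 to 0.10 under HDM, its log2 differences were -0.33 and -0.03, neither called. The VEH call was also lost without tumour VEH replicate 1 (-0.29) or 3 (-0.38). Its closest profiles were those of Zfyve9, Nrg4 and Gm57450.

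Acvrl1 encodes ALK1, a type I receptor found mainly on endothelium, and lies on chromosome 15 at 101025996 to 101043217 (ENSMUSG00000000530, plus strand). Its level was 469, 204 and 490.1 CPM in normal VEH and 534, 498 and 507 CPM in normal HDM. In the tumours it was 51.0, 87.1 and 48.6 CPM under VEH and 34.1, 22.5 and 10.1 CPM under HDM. The 4 groups separate here: tumour HDM lay below tumour VEH, which lay below adjacent lung, and normal VEH replicate 2 was the low library of the adjacent lung. The log2 difference between tumour and adjacent lung was -2.64 ± 0.46 under VEH and -4.53 ± 0.50 under HDM, or 6.23-fold and 23.1-fold in means. The closest profiles were those of She, Plxdc2 and Arhgef15, with mean absolute differences of 0.18 to 0.19 log2 units over 12 libraries.

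The ligand Bmp4, a regulator of lung branching in the embryo, lies on chromosome 14 at 46620250 to 46636745 (ENSMUSG00000021835, minus strand). In adjacent lung it was at 68.3, 25.4 and 56.2 CPM under VEH and 37.8, 50.8 and 72.8 CPM under HDM. In tumours it was at 5.52, 21.1 and 7.98 CPM under VEH and at 4.35, 3.04 and 0.485 CPM under HDM. Tumour VEH replicate 2 came close to normal VEH replicate 2 without reaching it, and tumour HDM replicate 3 was far below the other tumours, so that the tumour range was 43.4-fold. The log2 differences were -2.11 ± 0.71 under VEH and -4.37 ± 0.79 under HDM. The VEH value was -2.88 without tumour VEH replicate 2 and -1.67, no longer called, without tumour VEH replicate 1. The call was also lost without tumour VEH replicate 3, normal VEH replicate 1 or normal VEH replicate 3 (-1.81, -1.82 and -2.02).

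Bmp5, another secreted ligand of the family, lies on chromosome 9 at 75682638 to 75807592 (ENSMUSG00000032179, plus strand). It was at 120.2, 34.1 and 64.7 CPM in normal VEH and 57.0, 68.1 and 100.8 CPM in normal HDM, against 5.52, 17.3 and 10.6 CPM in tumour VEH and 9.36, 3.07 and 0.789 CPM in tumour HDM. No tumour reached an adjacent lung library, and the same tumour libraries as for Bmp4 marked the ends of a 21.9-fold range. The log2 differences were -2.71 ± 0.78 and -4.11 ± 0.83. The VEH call was lost without tumour VEH replicate 1 (-2.28), tumour VEH replicate 3 (-2.58) or normal VEH replicate 1 (-2.15). An antisense gene, Gm26903, overlaps Bmp5 exons on the other strand with 8914 counts against 12649 for Bmp5 over all libraries. It was also the closest profile to Bmp5 (0.17), and the libraries were stranded by their label, but the strand setting of the counting is not given in the sources used here, so the reads of the 2 genes may not be fully separated.

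Chrdl1 encodes chordin-like 1, a secreted protein that binds BMP ligands and keeps them from their receptors, and lies on chromosome X at 142068670 to 142177258 (ENSMUSG00000031283, minus strand). It was at 14.5, 15.4 and 23.5 CPM in normal VEH and 11.3, 17.6 and 15.6 CPM in normal HDM. In tumours it was near the limit of detection, at 0.170, 0.223 and 0.369 CPM under VEH and 0.0821, 0.273 and 0.182 CPM under HDM, which are 4 to 8 counts and 2 to 8 counts per library. This was the widest separation of the 10 genes, with log2 differences of -6.12 ± 0.46 and -6.31 ± 0.47, or 70.2-fold and 82.9-fold in means. The tumour side of these ratios rests on few reads, and counting error alone is large there.

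Grem1 encodes gremlin 1, a secreted cysteine-knot protein that binds and blocks BMP ligands, and lies on chromosome 2 at 113576509 to 113589000 (ENSMUSG00000074934, minus strand). In adjacent lung it was at 2.71, 11.1 and 0.842 CPM under VEH and 0.246, 0.378 and 5.16 CPM under HDM. In tumours it was at 39.4, 6.84 and 16.0 CPM under VEH and 53.7, 75.2 and 15.9 CPM under HDM. Normal VEH replicate 2 lay above tumour VEH replicate 2, so the VEH groups overlap, and the log2 difference of 2.07 ± 1.20 was not called (adjusted p = 0.185, edgeR). Under HDM the groups did not overlap, and the difference was 4.64 ± 1.35 (adjusted p = 0.0152). Single libraries moved these values: the VEH difference was 3.55 without normal VEH replicate 2 and 1.30 without tumour VEH replicate 1, and the HDM difference was 7.38 without normal HDM replicate 3 and 4.15, not called, without normal HDM replicate 2.

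The closest profiles to Grem1 were those of Col5a3 (0.51), Twist2 (0.75) and Adamts14 (0.75), a fibrillar collagen, a mesenchymal transcription factor and a procollagen-processing protease. Normal VEH replicate 2, the adjacent lung library with most Grem1, also had the highest cell cycle genes of the 6 (176 CPM) and the lowest endothelial markers (2759 CPM). Among fibroblast markers it had the highest Col3a1 (1414 CPM), Dcn (919.8 CPM) and Lum (109.5 CPM) of the 6, and the lowest Tcf21 (10.6 CPM), Mfap4 (80.5 CPM) and Pdgfrb (26.7 CPM). Tumour VEH replicate 2, the tumour with least Grem1, had the lowest Col3a1 (2860 CPM) and Dcn (1444 CPM) of the tumours and the highest endothelial markers (914 CPM). It also had their lowest Pdgfra (115.9 CPM), but their highest Tcf21 (5.73 CPM), Mfap4 (91.6 CPM) and Npnt (51.2 CPM). Tumour HDM replicate 2, the tumour with most Grem1, had the highest Dcn (3275 CPM), but the lowest Lum (547 CPM), Col1a1 (64.8 CPM) and Col1a2 (36.5 CPM). The part of these cell types in the Grem1 difference was not tested.

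Id1 and Id3 encode inhibitors of DNA binding, helix-loop-helix proteins without a DNA-binding region that capture other transcription factors, and both are direct targets of BMP Smads. Id1 (chromosome 2 at 152566218 to 152579544, ENSMUSG00000042745, plus strand) was at 76.9, 72.9 and 132 CPM in normal VEH, 59.8, 51.0 and 73.9 CPM in normal HDM, 8.92, 40.6 and 9.23 CPM in tumour VEH, and 10.8, 14.3 and 4.97 CPM in tumour HDM. Id3 (chromosome 4 at 135870808 to 135873066, ENSMUSG00000007872, plus strand) was at 214, 116 and 219 CPM in normal VEH, 118, 100.9 and 194 CPM in normal HDM, 42.4, 89.9 and 61.3 CPM in tumour VEH, and 36.2, 27.1 and 41.8 CPM in tumour HDM. For both genes tumour VEH replicate 2 was the highest tumour, and no tumour reached an adjacent lung library. Id1 differed by -2.26 ± 0.60 under VEH, which was -3.37 without tumour VEH replicate 2, and by -2.62 ± 0.61 under HDM. The VEH call of Id1 was lost without tumour VEH replicate 1 (-1.81), tumour VEH replicate 3 (-1.83) or normal VEH replicate 3 (-1.93). Id3 differed less, by -1.50 ± 0.35 and -1.97 ± 0.36. Antisense genes overlap both: Gm75058 with 4901 counts against 14491 for Id1, and Gm57159 with 8372 against 32704 for Id3, and each was the closest profile to its partner.

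Smad6 encodes an inhibitory Smad that is itself induced by BMP and damps the receptors, and lies on chromosome 9 at 63860341 to 63929793 (ENSMUSG00000036867, minus strand). Its adjacent lung levels were 209.5, 86.1 and 263 CPM under VEH and 113, 151 and 269 CPM under HDM. Its tumour levels were 5.95, 39.01 and 10.9 CPM under VEH and 4.27, 5.81 and 0.667 CPM under HDM. The tumour range of 58.5-fold was the widest of the 10 genes, with tumour VEH replicate 2 at the top and tumour HDM replicate 3 at the bottom. The log2 differences were -3.32 ± 0.86 under VEH, which was -4.46 without tumour VEH replicate 2, and -5.64 ± 0.97 under HDM, or 10.01-fold and 49.5-fold in means. The VEH call was lost without tumour VEH replicate 3 (-2.95). Tspan7, Chia1 and Foxf1 had the closest profiles (0.22 to 0.26).

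RefSeq promoter windows (GRCm38.p6, 250 bases before to 50 bases after the start site) matched 7 of the 10 genes. The windows of 3 are shown because the genes stand for the directions seen: Id3 and Smad6, targets that were lower in tumour, and Grem1, the antagonist that was higher. The 250 bases before the start are printed 5′ to 3′ along the gene's strand, with capitals at the letters searched on both strands: GGCGCC, a GC-rich letter run of BMP-responsive Id promoters, GTCTG or CAGAC, the core that Smads bind, and the E-box CACGTG. Id3 lies at chr4:136143572-136143821 (plus strand), Smad6 at chr9:64022060-64022309 (minus strand) and Grem1 at chr2:113758649-113758898 (minus strand).
Id3: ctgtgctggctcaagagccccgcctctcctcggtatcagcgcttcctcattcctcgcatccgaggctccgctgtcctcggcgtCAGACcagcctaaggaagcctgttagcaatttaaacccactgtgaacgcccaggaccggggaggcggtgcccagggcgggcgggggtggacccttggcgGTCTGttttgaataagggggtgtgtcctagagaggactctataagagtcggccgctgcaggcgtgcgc
Smad6: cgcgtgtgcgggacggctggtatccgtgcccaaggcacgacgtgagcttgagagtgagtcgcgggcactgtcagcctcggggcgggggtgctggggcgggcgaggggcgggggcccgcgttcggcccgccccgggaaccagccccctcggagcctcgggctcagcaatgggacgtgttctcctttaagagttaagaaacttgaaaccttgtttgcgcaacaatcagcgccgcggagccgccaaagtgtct
Grem1: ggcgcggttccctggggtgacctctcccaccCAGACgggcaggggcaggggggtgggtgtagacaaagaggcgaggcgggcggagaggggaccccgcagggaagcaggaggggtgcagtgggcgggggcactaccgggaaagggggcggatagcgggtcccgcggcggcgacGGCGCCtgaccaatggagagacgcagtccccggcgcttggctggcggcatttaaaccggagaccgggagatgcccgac
In Id3, CAGAC starts 167 bases and GTCTG 68 bases before the start. The Smad6 window holds none of these letter runs, which says only that the letters are not in it. In Grem1, CAGAC starts 219 bases and GGCGCC 78 bases before the start, and another CAGAC begins at base 18 of the transcript, outside the printed stretch. GGCGCC was in 3 of the 7 windows (Bmpr1a, Bmpr2, Grem1) and in 11.9% of all 32851 RefSeq windows of this length. GTCTG or CAGAC was in 3 (Bmp5, Grem1, Id3) and in 49.6%, and CACGTG in 1 (Bmp4) and in 7.2%. None of the motifs overlapped another in these windows.

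Per kilobase of gene length, the order of the 10 genes changed between tissues. In normal VEH, Id3 (102 ± 32.6 CPM per kb, SD, n = 3), Acvrl1 (90.9 ± 37.3), Id1 (81.0 ± 28.5) and Smad6 (58.1 ± 28.3) stood highest, and Chrdl1 (2.64 ± 0.73) and Grem1 (1.18 ± 1.32) lowest. Neighbours in that order lay within their SDs of each other except Bmpr1a (15.9 ± 1.09) and Chrdl1. In normal HDM, Acvrl1 came first at 120.2 ± 4.34 CPM per kb, clear of Id3 at 76.7 ± 27.6. In tumour HDM the order began with Id3 (19.6 ± 4.13 CPM per kb), Bmpr1a (12.9 ± 0.91) and Grem1 (11.6 ± 7.24), while Bmp4, Smad6 and Bmp5 stood at 1.17 ± 0.87, 1.12 ± 0.82 and 1.10 ± 1.10. Bmpr1a and Grem1, both among the last 3 in adjacent lung, were thus among the first 3 there, but the SD of Grem1 spans the levels of Bmpr1a, Id1 and Bmpr2. In tumour VEH they stood at 11.6 ± 1.16 and 5.01 ± 4.05 CPM per kb, ranks 4 and 8. Chrdl1 came last in both tumour groups, at 0.0376 ± 0.0153 CPM per kb under VEH and 0.0265 ± 0.0141 under HDM.

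The genes differed in how far they varied among the 6 tumours. Chrdl1, on few counts, ranged 4.49-fold and Grem1 10.99-fold. Bmpr2 and Bmpr1a ranged 1.19-fold and 1.34-fold and Id3 3.32-fold, whereas Id1 and Acvrl1 ranged 8.17-fold and 8.63-fold, Bmp5 21.9-fold, Bmp4 43.4-fold and Smad6 58.5-fold. Tumour HDM replicate 3 was the lowest tumour for 6 of the 10 genes, and tumour VEH replicate 2 was the highest for 6. The same 2 libraries were the lowest and highest tumours for the endothelial markers (166 and 914 CPM) and for the alveolar (109 and 9500 CPM), airway (19.8 and 20040 CPM) and smooth muscle markers (22.4 and 119.7 CPM), and for the share of mitochondrial counts (0.342% and 1.79%). In adjacent lung, normal VEH replicate 2 was the lowest library for 5 of the 10 genes, and its endothelial markers summed to 2759 CPM against 4728 to 5753 CPM in the other 5. The part of these cell types and of the mitochondrial share in the levels of the 10 genes was not tested.

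**Figure D2:**
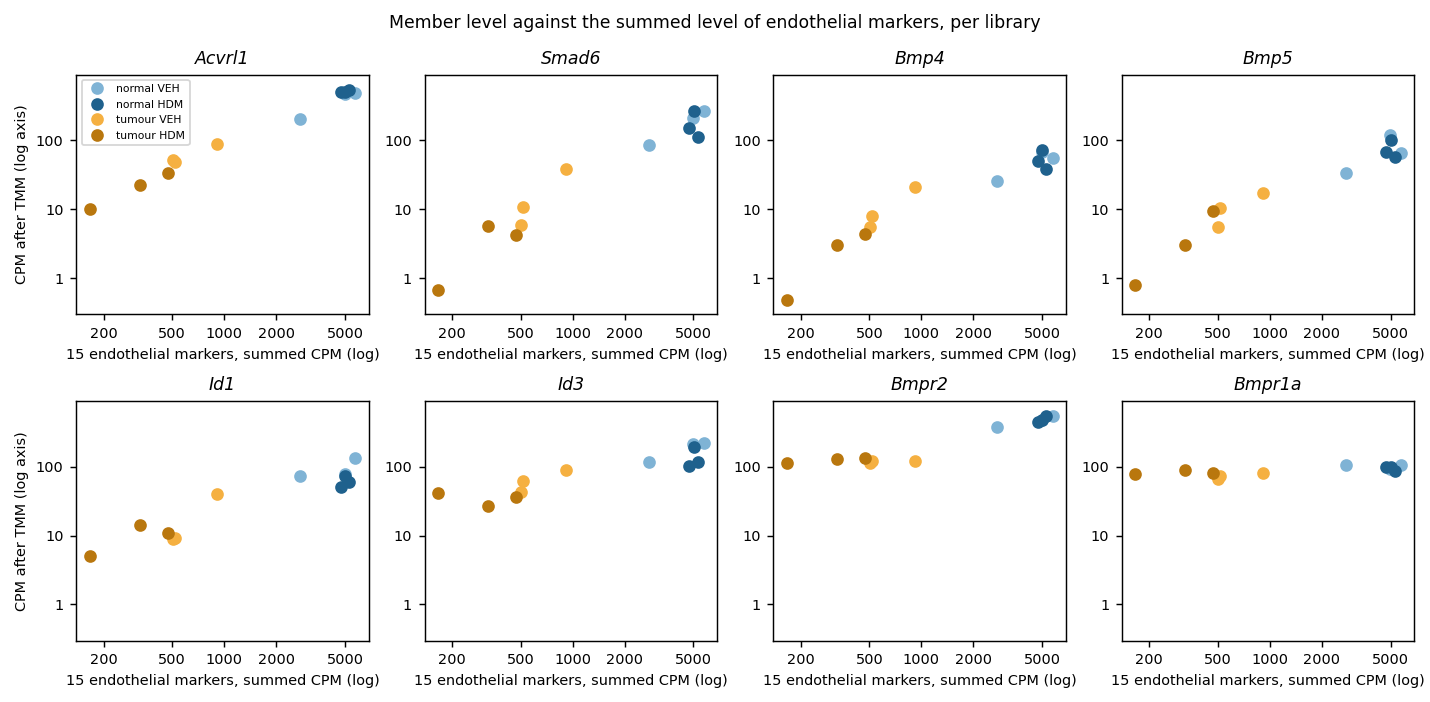
CPM of 8 of the genes (log axis) against the summed CPM of 15 endothelial markers (log axis), 1 point per library, coloured by group. Acvrl1, Smad6, Bmp4 and Bmp5 spread along both axes, whereas Bmpr2 and Bmpr1a lie flat over tumours whose endothelial sum ranges from 166 to 914 CPM.

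When each tumour was set against the adjacent lung library of its prefix, 9 genes were lower in tumour in 6 of 6 pairs and Grem1 was higher in 6 of 6. For most of the genes every tumour lay below every adjacent lung library, so any pairing would give 6 of 6. The genes were also chosen with such differences known, so nothing is read from these counts. On the scale of log2(CPM + 0.5), the pairwise differences ran from -2.28 to -1.51 for Bmpr2, from -0.50 to -0.18 for Bmpr1a, from -5.66 to -2.49 for Acvrl1 and from 1.55 to 5.95 for Grem1. The labels do not say that a prefix marks an animal, and 2 of the 6 pairs cross treatments, so the pairs are a description.

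The question of the mite treatment within each tissue was tested over all genes. In adjacent lung, HDM changed 0 of the 10 genes (edgeR's quasi-likelihood test), where 0% of all tested genes were called. The smallest adjusted p of any gene was 0.801, 1230 of 22190 genes had an unadjusted p under 0.05, none of them among the 10, and the DESeq2 Wald test called 43 genes, again none of the 10. The intervals stayed wide for most: the 95% interval of the log2 difference was -0.25 to 0.43 for Bmpr2 and -0.36 to 0.16 for Bmpr1a, but -1.81 to 1.67 for Smad6 and -4.02 to 1.32 for Grem1. Acvrl1 was the only gene of the 10 whose groups did not overlap, which is the share seen over all tested genes (10.3%), and it was higher under HDM by 0.40 ± 0.43, and that difference was 0.10 without normal VEH replicate 2.

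In tumours, HDM again changed 0 of the 10 genes by edgeR, where 0.0946% of all tested genes were called. For 4 genes the HDM tumours lay below the VEH tumours without overlap, and 22% of all tested genes had groups that did not overlap in either direction. These were Acvrl1 (-1.49 ± 0.44, adjusted p = 0.192), Bmp4 (-2.15 ± 0.73, adjusted p = 0.216), Smad6 (-2.39 ± 0.85, adjusted p = 0.227) and Id3 (-0.88 ± 0.35, adjusted p = 0.255), all by edgeR, and they were also the 4 with an unadjusted p under 0.05, which 3698 of all 22190 genes had. DESeq2's Wald test called 3 of them, at adjusted p = 0.0298 for Acvrl1, 0.0412 for Bmp4 and 0.0406 for Smad6, in a comparison where it called 1311 genes against 21 by edgeR. Several cell type lists were lower in the same comparison, with 0 genes called in each. The median log2 difference was -1.02 for the 15 endothelial markers (7 without overlap, lower), -1.43 for the 12 alveolar, -3.31 for the 8 airway and -2.29 for the 7 T and NK cell markers (7 without overlap, lower). It was -0.99 for smooth muscle, -0.47 for cardiac muscle and -0.43 for fibroblast markers. Other lists were not lower: the median was 2.87 for mesothelial markers (2 without overlap, higher), 0.19 for macrophage markers and 0.004 for cell cycle genes. The part of these cell types in the values of the 4 genes was not tested.

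The 6 other genes showed no difference that passed a test, with intervals of different width. For Bmpr2 the 95% interval of HDM minus VEH in tumour was -0.26 to 0.43 and for Bmpr1a -0.11 to 0.42. It was -3.03 to 0.33 for Bmp5, -2.27 to 0.32 for Id1, -1.50 to 0.58 for Chrdl1 and -1.35 to 3.79 for Grem1, so sizeable differences lie within these intervals. Single tumours carried much of the Bmp4, Smad6 and Id1 values: without tumour VEH replicate 2 they were -1.37, -1.24 and 0.14.

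**Figure D3:**
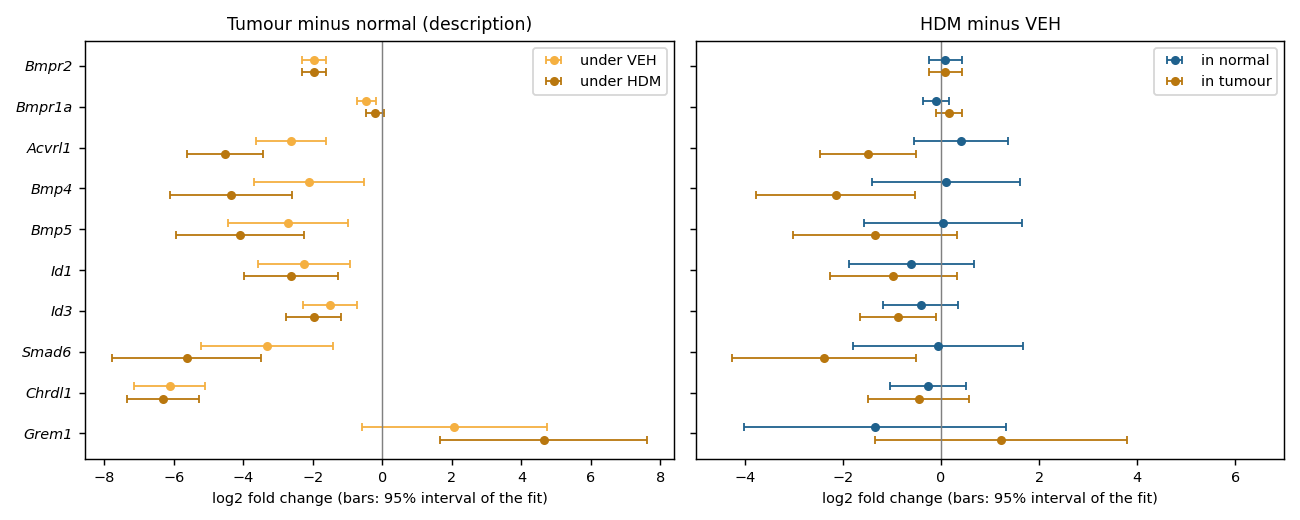
Log2 fold changes of the 10 genes with 95% intervals from the fit over 12 libraries, for tumour minus normal under each treatment (left) and for HDM minus VEH in each tissue (right). On the right, the tumour intervals of Acvrl1, Bmp4, Smad6 and Id3 lie below 0 before adjustment over all genes, and the adjacent lung intervals all include 0.

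Whether the tumour-to-lung difference itself depended on HDM was tested as an interaction over all 4 groups. No gene of the 22190 passed (0%, edgeR), 2084 genes had an unadjusted p under 0.05, and DESeq2 called 222. Acvrl1 (-1.89 ± 0.61, adjusted p = 0.480, edgeR) and Bmp4 (-2.25 ± 0.99, adjusted p = 0.526) were the 2 of the 10 with an unadjusted p under 0.05, and DESeq2 called 0 of the 10. The larger difference under HDM for Acvrl1, Bmp4 and Smad6 therefore did not pass a test of the difference.

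The rest of the pathway was read from a list of 51 other ligands, receptors, Smads, regulators and targets, 44 of which were tested. This list was also chosen with earlier results of these data known. Nothing is therefore read from its counts of calls, here or by role below, and the values are a description. Under VEH 21 of 44 were called lower and 6 higher (edgeR), beside 20.6% and 18.2% of all genes, and under HDM 26 were lower and 6 higher, beside 28.9% and 23%. The same 20 genes were called lower in both comparisons, 6 were called higher in both (Fstl1, Rgma, Rgmb, Smad1, Smad5 and Smurf1) and 11 were called in neither. The list's median log2 difference was -1.19 under VEH and -2.13 under HDM, or -1.15 and -1.92 with genes at 3 counts or fewer in every tumour set to their bound, against -0.11 and -0.08 over all genes. Under VEH the 27 calls dropped to 16 without tumour VEH replicate 3 and to 13 without the libraries of conflicting prefixes. With library size in place of TMM, no called gene of the list changed direction, and under HDM Smurf2 and Kcp lost their call and Acvr1 gained one (7 higher, 24 lower). Groups that did not overlap numbered 21 lower and 7 higher of 44 under VEH, where 28.5% and 23.9% of all genes were, and 27 lower and 6 higher under HDM, where 33.5% and 29.6% were.

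Among 8 ligands tested, 4 were called lower under VEH and 6 under HDM, beside 20.6% and 28.9% of all genes. Of the ligands, 0 were called higher, though 1 that was not called was higher in tumour without overlap under VEH. Bmp6, a ligand known from iron regulation in liver endothelium, fell, with log2 differences of -3.75 ± 0.73 under VEH and -6.06 ± 0.82 under HDM, although it shares exonic sequence with Txndc5 on the opposite strand, which had 109043 counts against 28285. Bmp3 fell too (-4.25 ± 1.21 and -5.98 ± 1.33, in that order, as in the pairs of values that follow). Gdf2 was low everywhere, at 0, 2.52 and 1.68 CPM in normal VEH and 0.492, 3.32 and 0.368 CPM in normal HDM, with 2 counts or fewer in every VEH tumour and 0 in every HDM tumour. Against a floor of 3 counts per library, it was at least 13.2-fold lower under HDM, or 4.07-fold without normal HDM replicate 2. On the same floor Gdf6 was at least 5.44-fold lower under VEH, and Gdf5 at least 7.88-fold lower under HDM, or 5.20-fold without normal HDM replicate 2.

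The 8 receptors and co-receptors moved in both directions. Rgma and Rgmb, repulsive guidance molecules that act as BMP co-receptors, rose, by 1.66 ± 0.28 and 1.87 ± 0.20 under VEH and by 2.11 ± 0.28 and 1.88 ± 0.20 under HDM. Rgmb was at 61.9 to 87.0 CPM in the 6 adjacent lung libraries and at 218 to 337 CPM in the 6 tumours. Eng, the endothelial co-receptor endoglin, fell (-1.17 ± 0.33 and -1.91 ± 0.33), and so did the type I receptor gene Bmpr1b (-2.54 ± 0.73 and -4.53 ± 0.81). Under VEH the Eng groups overlapped, with normal VEH replicate 2 at 172.5 CPM and tumour VEH replicate 3 at 178 CPM. Hjv, another co-receptor, was at 2 counts or fewer in every HDM tumour, against 1.72 ± 0.22 CPM (SD, n = 3) in normal HDM. It was at 0 in every VEH tumour, where its adjacent lung level of 0.132 ± 0.163 CPM (SD, n = 3) was near the floor. The 6 cardiac muscle markers summed to 179 to 401 CPM in normal HDM and 15.6 to 259 CPM in normal VEH. In tumours they summed to at most 12.7 CPM under HDM and 7.20 CPM under VEH. The part of cardiac muscle in the Hjv values was not tested.

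Of the 4 signalling Smads, Smad1 (0.52 ± 0.14 and 0.78 ± 0.15) and Smad5 (0.63 ± 0.21 and 0.99 ± 0.21) rose in tumour and the shared partner Smad4 was not called (0.09 ± 0.13 and 0.08 ± 0.13). Smad9 fell (-4.83 ± 0.85 and -4.26 ± 0.82), from 6.35 to 10.6 CPM in adjacent lung to at most 0.615 CPM in tumours. Among 6 intracellular or membrane regulators, 3 were called lower and 1 higher under each treatment. The shares of all genes were 20.6% lower and 18.2% higher under VEH, and 28.9% and 23% under HDM. Bambi, a pseudoreceptor that blocks the receptors, fell (-3.12 ± 0.49 and -4.04 ± 0.51). So did the inhibitory Smad7 (-1.23 ± 0.28 and -1.94 ± 0.29) and the ubiquitin ligase Smurf2 (-0.74 ± 0.23 and -0.59 ± 0.23), whereas its relative Smurf1 rose (0.81 ± 0.17 and 0.66 ± 0.17). Under VEH the Smurf2 groups overlapped, with normal VEH replicate 2 at 68.2 CPM and tumour VEH replicate 2 at 68.4 CPM.

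Of 12 secreted antagonists and modulators, 6 were called lower and 1 higher under each treatment. Over all genes, 20.6% were called lower and 18.2% higher under VEH, and 28.9% and 23% under HDM. Nbl1, a secreted BMP antagonist, fell (-3.42 ± 0.67 and -4.81 ± 0.72). The modulator Bmper fell as well (-1.94 ± 0.31 and -3.01 ± 0.33). Chrd, which encodes chordin, fell under VEH (-2.51 ± 0.48) and was at -0.09 ± 0.45, not called, under HDM. Vwc2 was at 0 in every HDM tumour, at least 18.5-fold lower. The 1 called higher was Fstl1, a follistatin-like glycoprotein named here after its values were seen (1.39 ± 0.48 and 1.74 ± 0.48). Its VEH groups overlapped, with normal VEH replicate 2 at 309.8 CPM and tumour VEH replicate 2 at 279 CPM.

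All 6 target genes tested were called lower under HDM and 4 under VEH, beside 28.9% and 20.6% of all genes. Under VEH the log2 differences of the 6 ran from -3.65 to -1.13. Tmem100, a membrane protein gene that depends on ALK1 signalling in endothelium, fell (-3.65 ± 0.93 and -7.04 ± 1.10), from 127 to 391 CPM in adjacent lung to 0.364 to 54.4 CPM in tumours. Hey1, a Notch and BMP target of endothelium, fell (-2.65 ± 0.66 and -4.43 ± 0.72), as did Atoh8 (-3.31 ± 0.64 and -4.42 ± 0.68). Id2 also fell (-1.13 ± 0.27 and -1.61 ± 0.27), and Id4 fell under HDM (-5.03 ± 1.16) and was at -2.43 ± 1.01, not called, under VEH. HDM minus VEH changed 0 of the 44 genes in either tissue by edgeR. An unadjusted p under 0.05 was found for 3 of them in adjacent lung and 14 in tumours, beside 1230 and 3698 of all 22190 genes. DESeq2 called 0 and 6 of the 44.

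**Figure D4:**
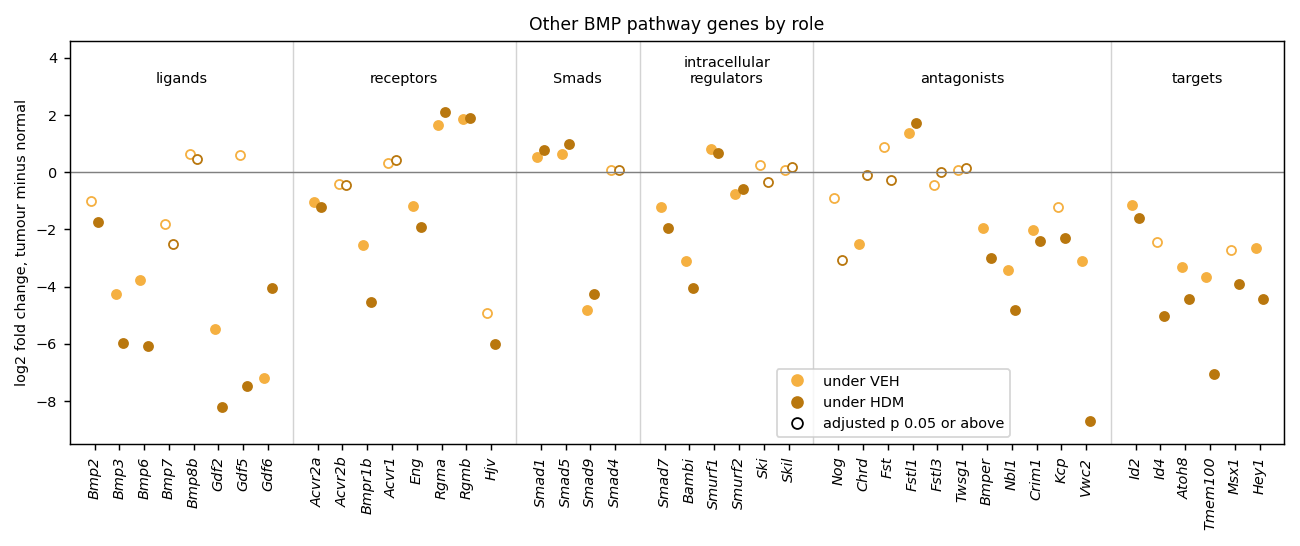
Log2 fold change, tumour minus normal, of 43 of the 44 other pathway genes by role, under VEH and HDM, with open points where the adjusted p was 0.05 or above. Ligands and targets lie mostly below 0, Rgma, Rgmb, Smad1, Smad5, Smurf1 and Fstl1 lie above 0 as filled points, and the lowest points include genes at 3 counts or fewer in every tumour, whose fitted values are not bounds.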

How the data were processed

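The data are raw counts per gene as deposited by the authors, made with Trim Galore, STAR and featureCounts (Subread) on mm39 per the submitters' processing notes. Versions and the counting's strand setting are not given in the sources used here, and libraries were stranded (dUTP) per the labels. Between 66.7% and 70.6% of counts from 1 to 50 were even numbers in every library, and whether reads or read pairs were counted is not stated. Gene names and coordinates came from GENCODE M39 (GRCm39), which held 78168 of 78298 identifiers, the rest carrying 0.143% of counts.

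One model over 12 libraries with a coefficient per group was fitted with edgeR 4.0.16 in R 4.3.3 (TMM, filterByExpr with a minimum count of 10, robust glmQLFit, glmQLFTest, two-sided, Benjamini-Hochberg over 22190 genes, called below 0.05), and was tested on simulated counts. DESeq2 1.42.0 was an alternative, as were other scalings and filters, blocks by replicate number or library prefix, subsets of libraries, and counts divided by 2, the last chosen after seeing the data. Standard errors were derived from the fit, as the absolute log2 difference divided by the square root of its F statistic. The 95% intervals were built from these standard errors with a t quantile.

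The 10 genes and all lists were chosen with earlier results of these data known. From the wider pathway list, up to 4 called genes per role and comparison with the largest changes may be named, and genes at 3 counts or fewer in a group. For each of the 10 genes, the 3 closest profiles are the genes of average log2 CPM at least 3 with the smallest mean absolute difference of centred log2 CPM. Correlations of deviations from group means ran from -0.42 to 0.37 over 18 pairs by replicate number and from -0.26 to 0.23 over 6 by prefix. With 3 libraries per group and tissues of differing cell content, these values cannot decide whether numbers or prefixes mark pairs. Separate animals per replicate are not stated, so p-values measure the spread between these samples. The closest profiles to Chrdl1 and 1 pathway gene are not reported here.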

Additional observations from a re-analysis of the deposited data

How the results depend on the processing

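Under the alternatives, tumour-minus-normal values of the 10 genes kept their direction in 158 of 158 cases under VEH and 158 of 158 under HDM, and 29 VEH values (Bmpr1a, Bmp4, Bmp5, Id1, Smad6) and 4 HDM values (Bmp5, Grem1) lost their call, while 1 HDM value (Bmpr1a) gained one. Members called under VEH numbered 4 with no low-count filter and 4 without the libraries of conflicting prefixes, and 4 to 9 over left-out libraries, and the cause was not tested. Without those prefixes 5603 genes in all and 13 other pathway genes were called, and over left-out libraries 5733 to 9070 and 16 to 28. Under HDM, a minimum of 10 counts in every library, which tests fewer genes, left 20 pathway calls. HDM minus VEH in tumour called 8 genes with library size only, 52 with no filter, 53 with 10 counts in every library, 33 with counts divided by 2, 1311 by DESeq2 (6 pathway genes, 3 of the 10), and 0 with the library-prefix block, without conflicting prefixes or with only the compared groups, and 0 to 24 over left-out libraries. DESeq2 called 43 genes for HDM minus VEH in normal and 222 for the interaction (2 pathway genes), and over left-out libraries the interaction count was 0 to 6.

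Differences that were not called changed sign in places. For HDM minus VEH in normal these were Bmpr2 (-0.018), Bmp4 (-0.492) and Bmp5 (-0.563) without conflicting prefixes, Id1 (0.581) and Smad6 (1.477) with the library-prefix block, and Smad6 (0.015) with library size only. Over left-out libraries, Bmpr2 ran from -0.042 to 0.221, Bmp4 from -0.208 to 0.401, Bmp5 from -0.293 to 0.61, Smad6 from -0.503 to 0.266 and Grem1 from -3.987 to 0.125. For HDM minus VEH in tumour, Id1 was 0.066 with the library-prefix block and -1.309 to 0.139 over left-out libraries. In the interaction, Bmpr2 was 0.027 with library size only, 0.092 with the library-prefix block and 0.089 without conflicting prefixes, and Id3 was 0.326 and 0.219 under the last pair of settings. Over left-out libraries the interaction ran from -0.138 to 0.125 for Bmpr2, -0.69 to 0.748 for Id1 and -0.599 to 0.179 for Chrdl1.

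The replicate block left 1 gene called for HDM minus VEH in tumour, and ended the calls of Bmp4 under VEH (-2.20, adjusted p = 0.065) and Grem1 under HDM (4.46, adjusted p = 0.0507). The library-prefix block ended the VEH calls of Bmpr1a (-0.438, adjusted p = 0.0568), Bmp4 (-2.33, adjusted p = 0.0816) and Bmp5 (-3.01, adjusted p = 0.0704), leaving 6 of the 10 genes and 18 pathway genes called under VEH. Neither numbers nor prefixes are known to mark pairs.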
